A study of Mus musculus with 3 samples.

Results

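The protein tyrosine phosphatase superfamily was examined in mouse splenic T cells through the genes named Dusp, Ptpn and Ptpr. Members were chosen by symbol alone. Of 62 symbols that matched, 60 were kept from 55536 genes in the deposited tables, after leaving out Ptprv, which has no protein-coding transcript entry, and Ptprc (CD45), which was set apart. Total RNA was sequenced from CD3 T cells of the spleen of female B6CASTF1/J mice, an F1 hybrid (C57BL/6 dam, CAST/EiJ sire) aged 66 days. The 3 libraries, replicates 1, 2 and 3, form 1 group with no treatment named in the labels, and each was made from 300 ng of RNA with synthetic spike-in transcripts. They are 3 biosample records under 1 donor record, so an SD or a p-value reflects how far these samples differ, and that may be technical. Reads were assigned to a single reference genome, and the parental alleles were not analysed here.

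These enzymes remove phosphate from tyrosine, and the dual-specificity enzymes also from serine and threonine. They share a catalytic loop in which a cysteine attacks the phosphate and an arginine holds it. In T cells the tyrosine phosphatases of the Ptpn and Ptpr groups act on kinases of the antigen receptor pathway, while the MAP kinase phosphatases, a subset of the Dusp genes, switch off ERK, JNK and p38 after a stimulus. Several MAP kinase phosphatase genes are themselves early targets of the kinases they restrain.

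Codons of the catalytic loop were read from the GENCODE M21 transcripts. The signature searched in the translated coding entries was histidine, cysteine, any pair of residues, glycine, any pair of residues, arginine. It was encoded by at least 1 entry of 58 of the 60 members. Copies were counted in 1 coding entry per member: 50 had 1 copy and 8, all receptor-type, had 2. A partial entry can hold fewer copies than the full protein. Ptprk, for example, was read from an entry of 282 residues, so its count of 1 covers that entry only. Dusp27 and Dusp28 had none, and in Dusp28 a tyrosine stands in place of the histidine. The lines that follow give the 24 coding bases of the signature for the leading members of each class by TPM and for Ptpn11, the relative of Ptpn6, with the cysteine and arginine codons in capitals.
Dusp1, cysteine 258: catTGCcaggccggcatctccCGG
Dusp2, cysteine 261: cacTGCcaagctggcatctctCGC
Dusp10, cysteine 409: cacTGCcaggccggcgtgtccCGA
Dusp5, cysteine 263: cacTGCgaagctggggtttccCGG
Dusp11, cysteine 151: cacTGCacccatggcttaaatAGG
Ptpn22, cysteine 227: cacTGCagtgccggctgcggaAGG
Ptpn18, cysteine 229: cacTGCagtgctggctgcggaCGA
Ptpn6, cysteine 453: catTGCagcgctggcatcggcCGC
Ptpn11, cysteine 459: cacTGCagcgctgggattggcCGG
Ptpra, domain 1, cysteine 469: cacTGCagtgcaggtgtagggCGC
Ptpra, domain 2, cysteine 759: cacTGCagtgccggggcaggaCGG

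The codons did not sort cleanly by class in the 8 pairs compared. The search required the histidine, cysteine, glycine and arginine, so part of each identity was set in advance. Dusp1 and Dusp10 were identical at 20 of 24 bases and Dusp1 and Dusp2 at 19, while Dusp1 shared 17 with Ptpn6 and also 17 with Dusp5, and Ptpra and Ptpre shared 17. Ptpn22 and Ptpn18, both of the PEST group of phosphatases, shared 21, and Ptpn6 and Ptpn11, which encode SHP-1 and SHP-2, shared 20. The cysteine of the signature (the N-terminal copy in receptors with 2) was encoded by TGC in 48 members and by TGT in 10. Dusp11, an RNA phosphatase that removes phosphate from the 5′ end of RNA, carried the same cysteine and arginine frame. On mm10 the annotation places Dusp1 at chr17:26505590-26562128 on the minus strand, Dusp2 at chr2:127336159-127338376 on the plus strand, Ptpn22 at chr3:103859795-103912247 on the plus strand and Ptpn6 at chr6:124720707-124738714 on the minus strand. The wide span of Dusp1 comes from a pair of distant entries that were listed at 0 in every library by both quantifications.

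Expression covered about as large a share of the family as of all coding genes. With detection set at 1 TPM (a transcript abundance scaled by length and depth) in all 3 libraries, 29 of 60 members, or 48.3%, were detected, beside 9851 of 22028 protein-coding genes, or 44.7%. A mean of 10 TPM was reached by 19 members (31.7%, against 27.1% of coding genes), and 7 of them exceeded 50 TPM. A further 19 members had reads but fell short of detection, and 12 were listed at 0 in every library. The 60 genes together held 965, 961 and 918 TPM in replicates 1, 2 and 3, a mean of 948 ± 26.0 (SD, n = 3), and Ptprc alone held 541 ± 17.1. The 5 highest members, Dusp1, Dusp2, Ptpn22, Dusp11 and Dusp10, carried 51.7% of the summed TPM. Of the 18 pairs of neighbours in the order of the 19 highest members, 7 had library values that did not overlap.

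**Figure D1:**
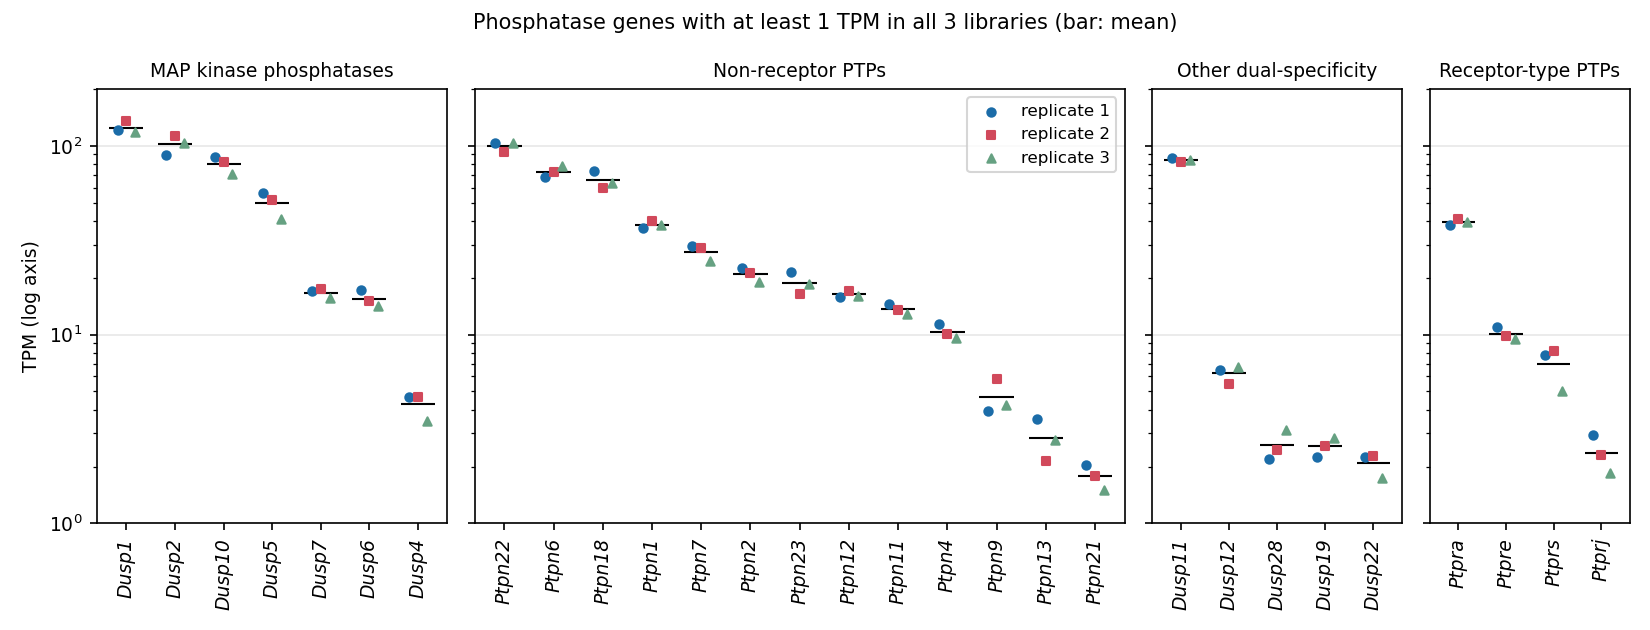
TPM on a log axis of the 29 members detected in all 3 libraries, by class and in falling order of the mean (black bar), with a point per library. The 7 detected MAP kinase phosphatases run from Dusp1 at a mean of 125 TPM down to Dusp4 at 4.26, and among the receptor-type genes Ptpra at 39.4 and Ptpre at 10.1 are the members that reach 10.

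The libraries held 16.93, 15.04 and 16.25 M estimated counts, and 1 TPM of a transcript of 1 kb effective length stood for 15.4 to 17.0 reads. Each pair of libraries differed by more than counting error, with chi-square of 4.2 to 5.24 per degree of freedom, and each was kept as a sample of its own. All 14 T-cell markers exceeded 10 TPM, Cd3e among them at 319 ± 10.2. The summed markers of other cells were low beside a T-cell sum of 3474 to 3767 TPM: 14 B-cell genes gave 44.4, 58.3 and 38.8 TPM in replicates 1, 2 and 3, and 14 myeloid genes 45.5, 33.0 and 41.8. Erythroid genes summed to 55.4, 97.7 and 43.2 TPM. In bulk RNA, fewer cells of a type and less RNA per cell cannot be told apart, and the part of other cell types in the levels that follow was not tested.

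The MAP kinase phosphatases were the class with the highest median, 16.1 TPM over 10 genes, of which 7 were detected, 6 reached 10 TPM and none was at 0. Their sum was 394, 419 and 368 TPM (393 ± 25.7, n = 3). Dusp1, which encodes the nuclear phosphatase MKP-1 and dephosphorylates p38, JNK and ERK, was the highest member at 121, 135 and 118 TPM in replicates 1, 2 and 3. It ranked 363 among 22028 coding genes, and its lowest library lay above the highest of Dusp2. From protein-coding entries only, the order of both turned, with 83.6 ± 4.42 TPM for Dusp1 and 88.3 ± 8.18 for Dusp2 (n = 3). Dusp2 (PAC-1), a nuclear phosphatase of activated lymphocytes, stood at 89.4, 112 and 104 TPM, lowest in replicate 1.

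Dusp10 (MKP-5), which acts mainly on JNK and p38, had 86.8, 82.1 and 70.8 TPM. Its relative Dusp16 (MKP-7) had 0.980, 0.640 and 0.620 TPM, so that the ratio of Dusp10 to Dusp16 was 110 ± 20.1 (n = 3). Dusp5, a nuclear phosphatase specific for ERK, had 56.2, 51.5 and 41.2 TPM, highest in replicate 1 and lowest in replicate 3. Dusp4 (MKP-2), also nuclear, reached 4.67, 4.65 and 3.47 TPM, and Dusp5 exceeded it 11.7 ± 0.513 times.

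Dusp7 and Dusp6, which encode cytoplasmic ERK phosphatases, lay below Dusp5 and above Dusp4 and were close to each other. Dusp7 (MKP-X) had 17.0, 17.3 and 15.7 TPM, and Dusp6 (MKP-3) had 17.2, 15.2 and 14.2. Their ratio, Dusp6 to Dusp7, was 0.931 ± 0.0749, and their library values overlapped. Dusp8 and Dusp9, the other members of the class, had means of 0.250 and 0.0800 TPM. Dusp1 alone held 31.7% of the class sum.

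The kinases that these enzymes act on were expressed alongside them. Of 13 MAP kinase genes, 8 were detected and 6 reached 10 TPM. Mapk14 (p38 alpha) had 40.0, 38.3 and 34.5 TPM. Mapk9 and Mapk8, which encode JNK2 and JNK1, had means of 16.1 and 13.1 TPM.

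The non-receptor class had 17 genes, of which 13 were detected, 10 reached 10 TPM and Ptpn20 was listed at 0. Its sum, 409, 383 and 393 TPM (395 ± 12.9), was close to that of the MAP kinase phosphatases, and the library ranges of both sums overlapped. Ptpn22 (PEP), which dephosphorylates Lck and ZAP-70 and binds the kinase Csk, led with 103, 93.2 and 103 TPM. From protein-coding entries only Ptpn22 had a mean of 47.3 TPM, below Ptpn6 at 68.8 and Ptpn18 at 62.7. In coding entries that hold the catalytic signature, the means were 47.3 for Ptpn22, 67.7 for Ptpn6 and 24.7 for Ptpn18. Ptpn18, of the same PEST group, had 73.7, 59.6 and 63.6 TPM, and Ptpn12 (PTP-PEST) had 15.8, 17.1 and 16.1. Ptpn22 was 6.13 ± 0.588 times Ptpn12.

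Ptpn6 (SHP-1), a phosphatase with SH2 domains recruited by inhibitory receptors, had 68.5, 72.4 and 78.4 TPM. Ptpn11 (SHP-2), which promotes Ras signalling downstream of many receptors, had 14.6, 13.5 and 12.8. The library values of both genes did not overlap, with a ratio of 5.39 ± 0.712, lowest in replicate 1 at 4.70 and highest in replicate 3 at 6.12.

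Ptpn1 (PTP1B), anchored to the endoplasmic reticulum, and Ptpn2 (TC-PTP), its nuclear and reticular relative, both act on JAK kinases and STAT factors. Ptpn1 had 36.8, 39.8 and 37.9 TPM and Ptpn2 had 22.4, 21.2 and 19.1, a ratio of 1.83 ± 0.175. Ptpn7 (HePTP), which holds a kinase interaction motif and keeps ERK and p38 in check in blood cells, had 29.4, 28.7 and 24.4. The other genes of that motif group were Ptpn5 at a mean of 0.370 TPM and Ptprr, listed at 0. Ptpn7 was thus the 1 detected gene of 3.

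Among the remaining non-receptor genes, Ptpn23 (HD-PTP), an endosomal sorting protein, had 21.5, 16.5 and 18.6 TPM. Ptpn4, of the FERM-domain group, had 11.3, 10.1 and 9.58 TPM. Ptpn13 and Ptpn21 of that group had means of 2.82 and 1.78 TPM, and Ptpn3 and Ptpn14 of 0.727 and 0.323, so 3 of 5 were detected. Ptpn9 had a mean of 4.67 TPM.

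In the other dual-specificity genes, a single gene carried the class. Of 14 members, 5 were detected and 4 were listed at 0, and Dusp11 held 84.9% of a sum of 99.1 ± 2.49 TPM. Dusp11 had 86.4, 81.9 and 84.3 TPM, with a coefficient of variation of 2.72%. Dusp12 followed with 6.51, 5.49 and 6.71 TPM. Dusp28, Dusp19 and Dusp22 (JKAP, which acts on Lck in T cells) lay between means of 2.09 and 2.59. Dusp23, Dusp3, Dusp18, Dusp14 and Dusp27 had means from 0.0133 to 0.833 TPM, and Dusp13, Dusp15, Dusp21 and Dusp26 were listed at 0.

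The receptor-type class was the least used. Of 19 genes, 4 were detected, 2 reached 10 TPM and 7 were listed at 0, and the sum was 60.7 ± 2.73 TPM. Ptpra, which activates Src kinases by removing their inhibitory phosphate, had 37.9, 40.9 and 39.4 TPM and held 64.9% of the class. Ptpre, with the same pair of catalytic domains, had 10.9, 9.85 and 9.43, and the ratio of Ptpra to Ptpre was 3.93 ± 0.40. Ptprs had 7.84, 8.19 and 5.01 TPM, and Ptprj (CD148), which acts on Src kinases as CD45 does, had 2.95, 2.29 and 1.85. Ptprc, outside the class by the rule, had 554, 548 and 522 TPM, and each library value exceeded that class's whole sum in every library.

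The 19 members with reads but no detection had means of 0.0133 to 0.833 TPM. Ptpn3 was above 1 TPM in replicate 1 alone, at 1.24, with 57, 31 and 25 estimated counts in replicates 1, 2 and 3. For the 12 at 0, the upper limit is 3 counts in each library, which in replicate 1 stands for 0.027 TPM in Ptprt and 0.236 TPM in Dusp21. These limits cover counting error only. The second quantification, an independent assignment of the reads deposited beside the first, gave reads to 6 of the 12. There Ptprr had 18.5, 8.40 and 24.1 estimated counts and Ptprz1 had 11, 6 and 24, while Ptprd, Ptprb, Ptprg and Ptprt had 2 to 14.3 in a library. All of these 6 are receptor-type genes, and their 0 in the gene table is therefore a listed value and not a measured absence. The other receptor-type gene at 0, Ptprq, and Dusp13, Dusp15, Dusp21, Dusp26 and Ptpn20 were at 0 in both.

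The transcripts behind the 19 highest members differed in form. A deposited entry is a GENCODE transcript model, and entries were grouped as coding with the catalytic signature, coding without it, nonsense-mediated decay, retained intron, or processed and other. Coding entries with the signature held over 50% of the gene's TPM in 14 of 19 members and over 90% in 4. Entries annotated for nonsense-mediated decay were not counted there, although those of Dusp11 and Ptpn22 also encode the signature. Retained-intron entries held a median of 5.69% over the 19 members, against 16.3% over 5963 coding genes of at least 10 TPM, and coding entries a median of 72.5% against 69.2%. Dusp5, Dusp6, Dusp7, Dusp10, Ptpn1, Ptpn2 and Ptpre have no entry annotated as retained intron, so their share is 0 by annotation. How many of the 5963 genes lack such an entry was not counted, so the medians do not compare intron retention itself. Total RNA includes unspliced and partly spliced RNA, and these shares rest on the model's assignment of shared reads.

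**Figure D2:**
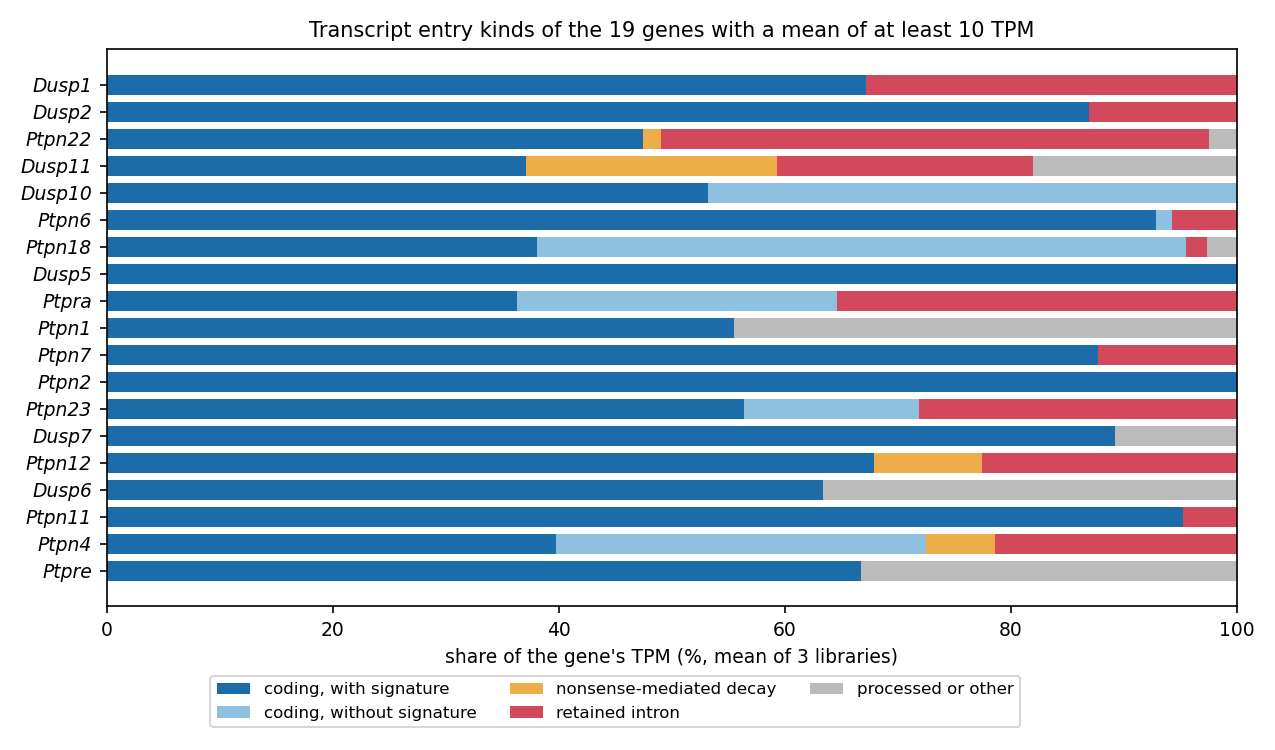
Share of each gene's TPM (%, mean of 3 libraries) by kind of transcript entry for the 19 members with a mean of at least 10 TPM, in falling order of TPM. Dusp5 and Ptpn2 are wholly in coding entries with the signature, whereas Ptpn22 has 48.5% in retained-intron entries and Dusp10, Ptpn18 and Ptpra have large parts in coding entries that lack it.

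Dusp1 had 67.1% ± 2.26 of its TPM in the full coding entry of 367 residues, and 32.8% in retained-intron entries. Dusp2 had 86.9% ± 3.22 in its coding entry of 318 residues. The second quantification gave these entries 67.4% and 83.8%. Ptpn6 had 85.0% ± 3.04 in a coding entry of 595 residues. These 3 genes thus had most of their abundance in forms that encode the catalytic loop.

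Ptpn22 had 47.4% ± 1.77 in its coding entry of 802 residues and 20.6% ± 1.99 and 16.6% ± 2.79 in a pair of short retained-intron entries. The second quantification put those 2 entries at 0 and the coding entry at 55.6%. Dusp11 was divided over several kinds, with 37.1% ± 1.98 in its coding entry of 6435 bases, 22.2% ± 5.71 in an entry annotated for nonsense-mediated decay, and 22.7% in retained introns.

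Dusp10 was split between 53.2% ± 5.44 in the full coding entry of 483 residues and 46.8% ± 5.44 in a partial entry of 724 bases that stops short of the signature. The second quantification reversed the order, with 37.9% and 62.1%. Ptpn18 had 57.4% ± 7.01 in an entry of 414 bases that encodes 85 residues and no signature, and 38.1% ± 6.09 in the full entry of 453 residues. There too the second quantification gave the other order, with 41.9% and 55.1%. For these 2 genes the leading form was therefore not settled by the deposited tables. By mean TPM it was the same in both for the other 17, though not in every library. In replicate 1 of the second quantification, the nonsense-mediated decay entry of Dusp11 held 30.7% and its coding entry 26.7%. There Ptpre had 35.2% in a coding entry of 699 residues and 33.3% in the leading one of 642.

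Ptpra was led in both quantifications by an entry without the signature, a partial model of 1386 bases with 28.4% ± 0.790. Its full coding entry of 829 residues, with both catalytic domains, followed at 28.1% ± 2.12, and their library values overlapped. Retained-intron entries held 35.3% of Ptpra. In the second quantification the partial entry held 28.1% and the full entry 25.3%.

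The second quantification gave higher values for most genes. Its ratio to the gene table had a median of 1.27 over the 29 detected members, from 0.910 to 1.68, and of 1.31 over 9851 detected coding genes. The same 5 members led in both, in another order: in the second quantification Dusp1 had a mean of 147 TPM, Dusp11 133, Dusp10 127, Dusp2 120 and Ptpn22 90.8. Dusp11 and Dusp10 had ratios of 1.58 and 1.59. Ptpn22 was the 1 detected member that was lower there, with 98.5, 81.6 and 92.3 TPM, and Ptpn18, Dusp7, Ptpn6 and Dusp6 had the next smallest ratios, 1.05, 1.10, 1.10 and 1.13. Ptpn1 had the largest ratio of a detected member, 1.68, with 62.9, 66.2 and 62.9 TPM. Ptprs had a ratio of 1.61, with 11.1, 12.6 and 10.1 TPM. Among members below detection in the gene table that had a mean of at least 1 TPM in the second, Dusp23, Ptpn3 and Dusp16 had ratios of 1.99, 1.63 and 1.59. Dusp3, Dusp9, Dusp18 and Dusp14, under 1 TPM in both, had ratios of 3.32, 2.04, 1.91 and 1.78. Dusp23 had 0.670, 0.890 and 0.940 TPM in the gene table and 1.71, 1.71 and 1.55 in the second, on about 30 estimated counts. Ptpn3 had 1.24, 0.520 and 0.420 TPM in the first and 1.40, 1.25 and 0.918 in the second. In the second quantification the ratio of Ptpn22 to Ptpn12 was 3.93 ± 0.323 in place of 6.13, and that of Ptpn1 to Ptpn2 was 2.51 ± 0.303 in place of 1.83. The ratio of Ptpn6 to Ptpn11 was 4.99 ± 0.389.

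**Figure D3:**
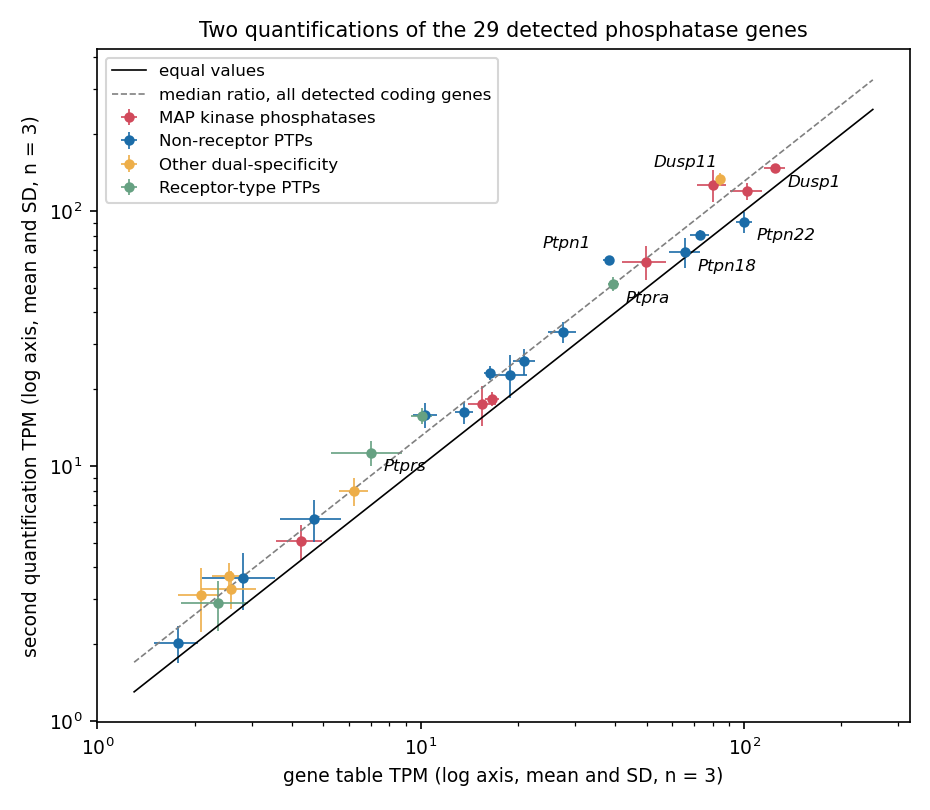
Mean TPM with SD (n = 3) of the 29 detected members in the gene table (horizontal, log axis) and in the second quantification (vertical, log axis), coloured by class. Points follow the dashed line of the median ratio over all detected coding genes, 1.31, with Ptpn1 above it and Ptpn22 below the line of equal values.

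The spread between libraries was tested on counts, since 1 group has no contrast. In edgeR's quasi-likelihood fit, each gene's dispersion was set against genes of like abundance, and 75 of 13280 genes were called at an adjusted p of 0.05, which is 0.565%. Of the 60 members, 38 passed the filter on low counts and 0 were called by edgeR, while 6 (15.8%) had an unadjusted p under 0.05, beside 755 genes (5.69%) in all. DESeq2's marking of outlying dispersion took 125 genes and 0 members. The 6 were Dusp2, Dusp5, Dusp10, Ptpn13, Dusp1 and Ptprj, and 4 of them are among the 8 MAP kinase phosphatases tested. Their values are given as a description, because none passed the adjusted threshold.

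In CPM, the counts brought to a common library size with TMM factors, Dusp2 had 128, 163 and 152 in replicates 1, 2 and 3, a ratio of highest to lowest of 1.28 (edgeR quasi-likelihood, unadjusted p = 0.00340, Benjamini-Hochberg adjusted p = 0.266). Dusp5 had 133, 127 and 104 CPM, also a ratio of 1.28 (edgeR, unadjusted p = 0.00359, adjusted p = 0.275). Dusp2 was lowest in replicate 1 and Dusp5 lowest in replicate 3, so the members of the class did not share an order. With no filter on low counts both were called, at an adjusted p of 0.0141 in edgeR. Dusp10 followed Dusp5 in order, with 159, 137 and 130 CPM (edgeR adjusted p = 0.547). Dusp1 was highest in replicate 2, as Dusp2 was, with 208, 242 and 213 CPM (edgeR adjusted p = 0.809).

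Early response genes, which a stimulus switches on within minutes, gave 3 calls. Of 19 on the list, 18 were detected and all 19 were tested by edgeR, with 3 called against 0.565% of all genes. Fos was called with 80.2, 101 and 122 TPM, Fosb with 31.1, 38.6 and 43.7, and Egr1 with 17.7, 26.2 and 21.6. Junb, not called, had 338, 384 and 312 TPM. In TPM, 12 of the 19 were highest in replicate 2, 3 in replicate 1, and 4, Fos and Fosb among them, in replicate 3. Of the 10 MAP kinase phosphatase genes, 7 were highest in TPM in replicate 1 and 3, Dusp1 and Dusp2 among them, in replicate 2. Those 7 include Dusp8, Dusp9 and Dusp16, which were below detection. The order depended on the scale: in CPM, Dusp4 was highest in replicate 2, and Dusp6 and Dusp7 in replicate 3. The share of all genes highest in each replicate was not counted, so these counts have no background. Other lists gave calls too: 2 of 9 heat-shock genes (Hspa1a and Hspa1b, the latter with 4.07, 10.5 and 14.5 TPM), 2 of 13 proliferation genes (Mki67 and Top2a, both highest in replicate 1 and lowest in replicate 3, as Dusp5 and Dusp10 were) and 1 of 5 erythroid genes tested. The summed B-cell markers and the erythroid genes were also highest in replicate 2, and the part of these lists in the order of the phosphatase genes was not tested.

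Ptpn13 had 21.6, 14.8 and 18.3 CPM (edgeR adjusted p = 0.774) and Ptprj had 19.9, 17.9 and 14.1 (edgeR adjusted p = 0.871). For the 19 highest members, the coefficient of variation had a median of 7.58% in TPM, against 6.77% over 5963 coding genes of at least 10 TPM, and of 4.50% in CPM. It was lower in CPM for 15 of the 19, but neither the CPM median nor that count was computed over all coding genes. Ptpn18 is the clearest case, with 73.7, 59.6 and 63.6 TPM but 51.7, 52.6 and 52.0 CPM. Its effective length in the gene table, by which TPM divides the reads, was 705, 850 and 769 bases in the 3 libraries. Dusp6 likewise had 30.2, 30.0 and 30.5 CPM, with effective lengths of 1763, 1906 and 2019 bases.

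**Figure D4:**
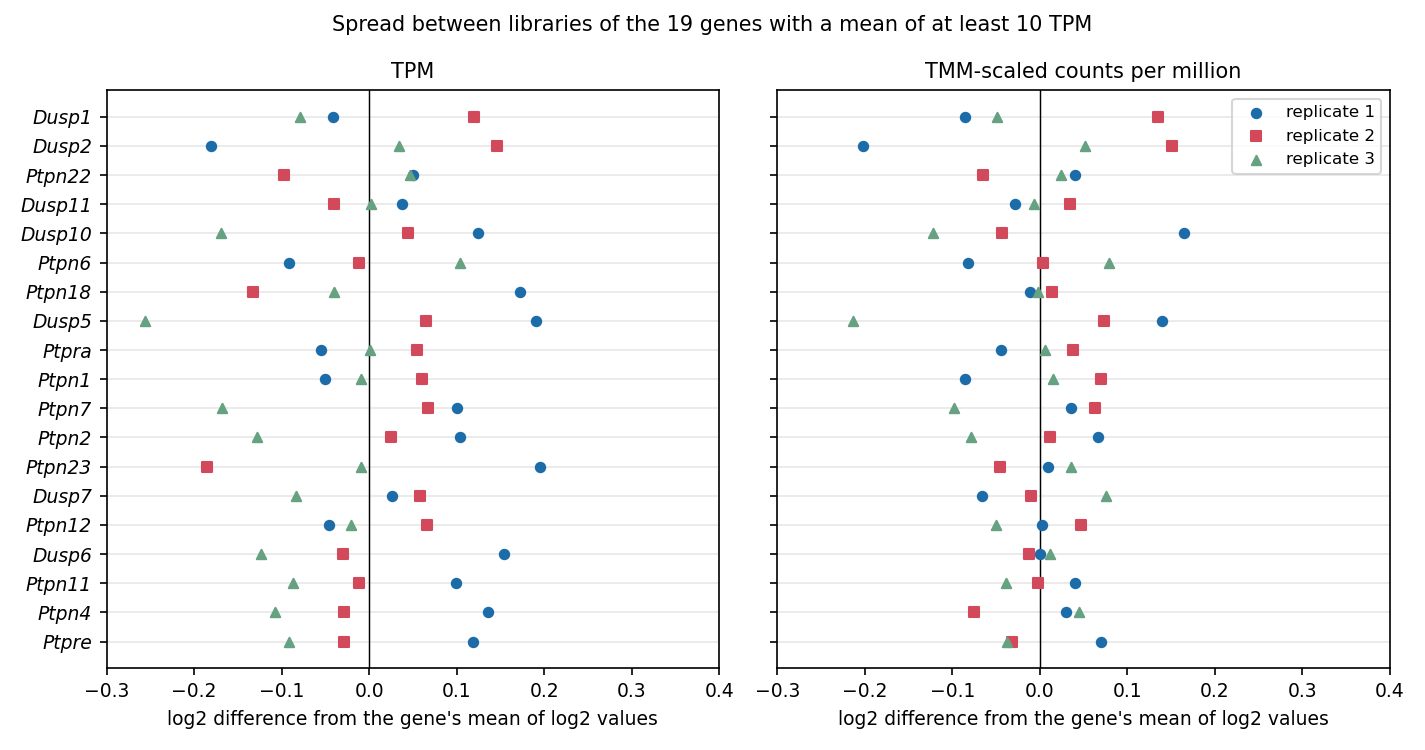
Log2 difference of each library from the gene's own mean of log2 values for the 19 members with a mean of at least 10 TPM, in TPM (left) and in TMM-scaled CPM (right). Dusp2, Dusp5, Dusp10 and Dusp1 keep a spread on both scales, whereas the 3 points of Ptpn18 and of Dusp6 come together in CPM.

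Kinases and binding partners of the phosphatases were abundant. All 16 tyrosine kinases of the list were detected, 13 of them at 10 TPM or more, and 0 of 16 were called by edgeR, with 1 at an unadjusted p under 0.05. Lck, the Src kinase that starts receptor signalling, had 325, 329 and 310 TPM, and Csk, which holds Lck inactive together with Ptpn22, had 122, 130 and 116. Of 20 genes for partners and inhibitory receptors, 17 were detected and 0 were called, again with 1 at an unadjusted p under 0.05. Ptprcap, which associates with CD45, had 119, 117 and 110 TPM, and Cd5, an inhibitory receptor, had 99.6, 109 and 89.3.

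Phosphatases outside the name rule added further transcripts. Of 27 other genes listed as phosphatases or their relatives, Ptprc included, 20 were detected. Of 21 tested, 0 were called by edgeR, with 1 at an unadjusted p under 0.05. The catalytic signature was not searched in these genes, and the list was not limited to enzymes that carry it. Ptp4a2, a prenylated phosphatase, had 107, 116 and 95.2 TPM, and Ssh2, a cofilin phosphatase of the slingshot family, had 88.8, 81.8 and 87.2. Ubash3a (STS-2), which restrains receptor signalling, had 36.8, 33.7 and 33.3.

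Several members share exonic sequence with genes on the opposite strand. The overlap of Dusp1 with Ergic1 (11.6 ± 0.687 TPM) lies in its distant entries, which are listed at 0. Ptpre overlaps the antisense gene 5830432E09Rik (4.67 ± 0.375), and Dusp5 overlaps AC137853.2 (2.15 ± 0.349). Dusp11, Ptpn6, Ptpn18 and Ptpra overlap genes of at most 0.963 TPM. The kit marks strand, but the setting used in counting is not given in the sources used here, so values of these genes other than Dusp1 carry that uncertainty. The deposited posterior SD of the count, a measure of reads shared with other genes, was above 0 for 1 member, Ptprj. A value of 0 did not mean like counts in both quantifications. Dusp3, for example, had 16, 9 and 8 counts in the gene table and 57.7, 43.8 and 45.5 in the second quantification.

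Promoters were read because several MAP kinase phosphatase genes are known early targets of signalling. RefSeq windows of 250 bases upstream of the start (GRCm38.p6) were found for 49 of 60 members, 65 windows in all. Motifs were searched on both strands. The cyclic AMP response element TGACGTCA was in 4 of 65 windows (6.15%), against 1.55% of 32851 windows of all genes, and the CArG box, the site of serum response factor, in 3 (4.62%) against 1.47%. The GC box GGGCGG was in 55.4% against 32.7%, and TATAAA in 1.54% against 12.4%. The AP-1 site TGACTCA was in 4.62% against 4.46%. The median GC content was 63.2% against 52.4%. The windows of all genes were not matched to the members in GC content, so these shares do not compare motifs at like base content. Members detected and not detected had the response element at close shares, 6.25% of 32 and 6.06% of 33 windows.

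Among the 17 members of at least 10 TPM with a window, the response element was in Dusp1 and Ptpn11 and the CArG box in Dusp5. Their windows are shown with those motifs in capitals, 5′ to 3′ on the strand of the gene and without bases that an exon of the gene covers. In Dusp1 the element starts 143 bases upstream of the RefSeq start and in Ptpn11 67 bases. Dusp5 has a pair of adjoining CArG boxes that start 82 and 72 bases upstream.
Dusp1, chr17:26508520-26508722, minus strand: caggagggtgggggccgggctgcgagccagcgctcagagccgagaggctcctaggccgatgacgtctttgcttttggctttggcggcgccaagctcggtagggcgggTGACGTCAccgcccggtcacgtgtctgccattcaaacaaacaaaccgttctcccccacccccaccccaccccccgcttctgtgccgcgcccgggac
Dusp5, chr19:53528895-53529108, plus strand: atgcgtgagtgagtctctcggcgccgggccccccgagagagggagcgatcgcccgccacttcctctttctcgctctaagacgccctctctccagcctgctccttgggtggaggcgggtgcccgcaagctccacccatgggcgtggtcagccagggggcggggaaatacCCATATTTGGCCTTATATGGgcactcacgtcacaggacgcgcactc
Ptpn11, chr5:121191398-121191647, minus strand: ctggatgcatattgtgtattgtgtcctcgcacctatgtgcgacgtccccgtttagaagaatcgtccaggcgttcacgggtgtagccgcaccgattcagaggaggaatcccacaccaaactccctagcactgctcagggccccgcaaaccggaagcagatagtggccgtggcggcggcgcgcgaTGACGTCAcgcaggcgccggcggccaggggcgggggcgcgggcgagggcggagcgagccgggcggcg
A match is a description of these letters, and binding was not measured. The Dusp5 window lies within the span of the antisense gene AC137853.2 (chr19:53528609-53529655).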

How the data were processed

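The authors deposited, per the file headers, expected counts, TPM, FPKM and posterior mean TPM per gene and transcript, and a second transcript table of estimated counts and TPM. The labels and the deposited README give mm10 with GENCODE M21. Which aligner and quantifier made them is not given in the sources used here. Transcript entries numbered 168207 in the first such table and 141864 in the second, which was summed per gene. Entries named by a number only were left out.

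Members were taken by symbol, and the members and lists were chosen with earlier results of these data known. Named members are those of at least 10 TPM (up to 8 per class), the 2 highest of a class, any called, and the 5 with the largest and the 5 with the smallest ratio between the quantifications among members with a mean of at least 1 TPM in either. Others are given by mean or range. Expected counts were rounded for edgeR 4.0.16 in R 4.3.3 (intercept only, filterByExpr, TMM, robust), with an F test of the quasi-likelihood dispersion against the trend and Benjamini-Hochberg adjustment over 13280 genes. The test was run on simulated data first. Alternatives were the second quantification, coding entries only, FPKM, other thresholds and filters, DESeq2 1.42.0 and each replicate left out. TMM-scaled CPM of the members was added after the values were seen. Coordinates are 1-based. In a library, 3 counts are 1.78e-05% to 2.00e-05% of the total.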

Additional observations from a re-analysis of the deposited data

How the results depend on the processing

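Detection moved from 29 members to 31 at 0.5 TPM, 26 at 2 TPM, 30 in the second quantification and 28 from coding entries only, and stayed at 29 with each replicate left out. The median TPM of the detected members was 16.4, with 18.9 in the second quantification, 12.6 from coding entries only and 16.1 to 16.7 with a replicate left out. Summed TPM in the second quantification and from coding entries only was 499 and 331 for the MAP kinase phosphatases (381 to 406 with a replicate left out), 456 and 297 for non-receptor genes (388 to 401), 154 and 42.0 for other dual-specificity genes (98.2 to 101) and 85.1 and 39.2 for receptor-type genes (59.7 to 62.2). The median share of coding entries with the signature was 67.1%, with 63.0% in the second quantification and 65.9% to 68.3% with a replicate left out. Of the 19 highest members, 18 moved by over 1 SD in the second quantification, 13 from coding entries only and 3 with posterior mean TPM, and 0 with FPKM or a replicate left out. Such moves were not counted over all genes. The second quantification was higher in general, with a median ratio of 1.31 over 9851 detected coding genes. The 75 genes with a spread beyond the trend became 303 of 22813 without a filter, where Dusp2 and Dusp5 were the 2 members called, 28 in a non-robust fit, 125 by DESeq2's outlying dispersions and 35 to 85 with a replicate left out (43 without replicate 1, 35 without replicate 3). Apart from that unfiltered fit, 0 members were called under any alternative run, and 2 to 6 had an unadjusted p under 0.05. Over the alternatives the adjusted p of Dusp2 ran from 0.0141 to 0.978 and that of Dusp5 from 0.0141 to 0.998 (edgeR). The causes were not tested. No paired analysis was possible because the samples form 1 group. About 15 to 17 reads per TPM and kilobase limit the members under 1 TPM.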
